A study of Mus musculus with 89 samples.

Results

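Polycomb repressive complex 2 (PRC2) was followed through 8 of its genes, Ezh1, Ezh2, Eed, Suz12, Jarid2, Mtf2, Phf19 and Aebp2, taken by symbol from the 54146 gene rows of the count table. RNA-seq of mouse embryonic stem cells (ESCs) gave 20 libraries. Cells in FCS/LIF (serum with the cytokine LIF) gave 8, as 2 replicates of 4 states, and cells in 2i/LIF gave 12 (serum-free medium with LIF and the inhibitors PD0325901 and CHIR99021, 3 replicates for each state). Every cell line used lacks the endogenous orphan nuclear receptor Esrrb and carries a Dox-inducible Esrrb transgene (EKOiE). With Dox at 1 µg/ml, EKOiE cells are called +E+N. They are called −E once Dox has been absent for 2 days. In EKOiE NrKO cells, both alleles of Nr5a2, which encodes another orphan receptor, are disrupted, and these cells are −N with Dox and −E−N after 2 days without it. Thus +E+N, the control, expresses Esrrb only from the transgene. The study's methods describe 2 NrKO clones and speak of RNA-seq for clone 4, and the labels name no clone. Effects of the clone and of losing Nr5a2 cannot be told apart. Likewise, medium and culture batch cannot be told apart. The comparisons ask how the messenger RNA of PRC2 responds to the loss of either receptor or of both, and whether the response depends on the medium. The study describes its replicates as independent experiments, while the labels give only their numbers.

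PRC2 methylates histone H3 at lysine 27 and keeps developmental genes silent in ESCs. Ezh2 and Ezh1 are the alternative catalytic subunits, and Eed and Suz12 complete the core: Eed reads the methyl mark, and Suz12 holds the subunits together. The accessory subunits define variant complexes. Mtf2 and Phf19 are Polycomb-like proteins of PRC2.1, whereas Jarid2 and Aebp2 belong to PRC2.2.

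The promoters of Jarid2, Mtf2 and Phf19 are shown because these members gave the 3 largest falls after loss of both receptors in FCS/LIF. Sequences are from RefSeq (GRCm38.p6, the assembly of mm10), on the strand of the gene, and hold the longest stretch of the 300-base promoter window (250 bases before the start site, 50 after it) that overlaps no annotated exon. Capitals mark CpG dinucleotides. The Jarid2 stretch, chr13:44730524-44730773 on the plus strand, holds 23 CpG, and is followed by that of Mtf2, chr5:108065424-108065673 on the plus strand, with 23, and of Phf19, chr2:34914027-34914215 on the minus strand, with 24. Jarid2 and Mtf2 each have another window, not shown. Its stretch holds 22 CpG for Jarid2 (chr13:44731021-44731270) and 2 for Mtf2 (chr5:108077915-108078164).
Jarid2: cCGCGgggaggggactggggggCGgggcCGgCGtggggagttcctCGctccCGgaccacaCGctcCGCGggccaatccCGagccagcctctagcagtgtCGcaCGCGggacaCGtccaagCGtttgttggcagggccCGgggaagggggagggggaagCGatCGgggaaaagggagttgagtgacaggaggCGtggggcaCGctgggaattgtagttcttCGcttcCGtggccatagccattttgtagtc
Mtf2: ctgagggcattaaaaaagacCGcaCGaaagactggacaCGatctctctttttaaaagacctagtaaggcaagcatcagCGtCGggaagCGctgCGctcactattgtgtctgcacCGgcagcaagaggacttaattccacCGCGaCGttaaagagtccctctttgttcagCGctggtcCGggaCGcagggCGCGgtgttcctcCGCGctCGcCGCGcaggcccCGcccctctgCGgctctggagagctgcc
Phf19: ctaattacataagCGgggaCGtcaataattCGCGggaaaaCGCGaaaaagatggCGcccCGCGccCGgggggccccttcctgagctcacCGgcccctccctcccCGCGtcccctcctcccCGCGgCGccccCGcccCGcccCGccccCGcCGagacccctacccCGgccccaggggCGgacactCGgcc
Over all promoters in the table the median was 7 CpG per 300 bases. Esrrb and Nr5a2 bind the sequence TCAAGGTCA or TCAAGGCCA. Neither 9-letter sequence, nor the shorter AAGGTCA and AAGGCCA that they contain, was found on either strand in any of the 12 RefSeq windows of the 8 members. They occur in 0.423%, 0.591%, 4.72% and 6.2% of the 32851 promoters of the table, respectively.

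The deposited values are estimated counts per gene. Library totals were 36514172 to 45443379 for FCS/LIF and 26653035 to 32526534 for 2i/LIF. Levels are given as CPM, counts set to a common library size and scaled by TMM over the 20 libraries, and differences as log2 fold changes of counts from edgeR's quasi-likelihood test. A member is called at an adjusted p (Benjamini-Hochberg over all genes tested) under 0.01 and a fold change over 1.5, and a wider count takes an adjusted p under 0.05 at any size. As a check of the labels, Esrrb measured 271 and 353 CPM in +E+N and 74.2 and 65.1 CPM in −E in FCS/LIF, and 515, 609 and 605 CPM against 441, 434 and 380.4 CPM in 2i/LIF, where its difference did not pass (log2 fold change −0.46, SE 0.16, adjusted p = 0.116). Nr5a2 measured 39.9 and 36.1 CPM in +E+N and 27.2 and 25.6 CPM in −N in FCS/LIF, and 80.2, 70.6 and 61.8 CPM against 78.4, 64.3 and 63.9 CPM in 2i/LIF. Counts over a whole gene include transcript made from disrupted alleles, and for Nr5a2 the counted gene is thus no check of the knockout. Counts of Esrrb likewise cannot separate the transgene from any transcript of the disrupted endogenous alleles. The counted gene is thus no measure of how far Esrrb from the transgene was lost in 2i/LIF. The study reports that Esrrb binding to DNA was ablated in the serum-free medium once Dox was withdrawn. All 8 ESC markers listed (among them Pou5f1, Sox2 and Nanog) were above 3 counts in every group. Cells of 1 culture are pooled in a library, and fewer cells of a type and less RNA per cell cannot be told apart.

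**Figure D1:**
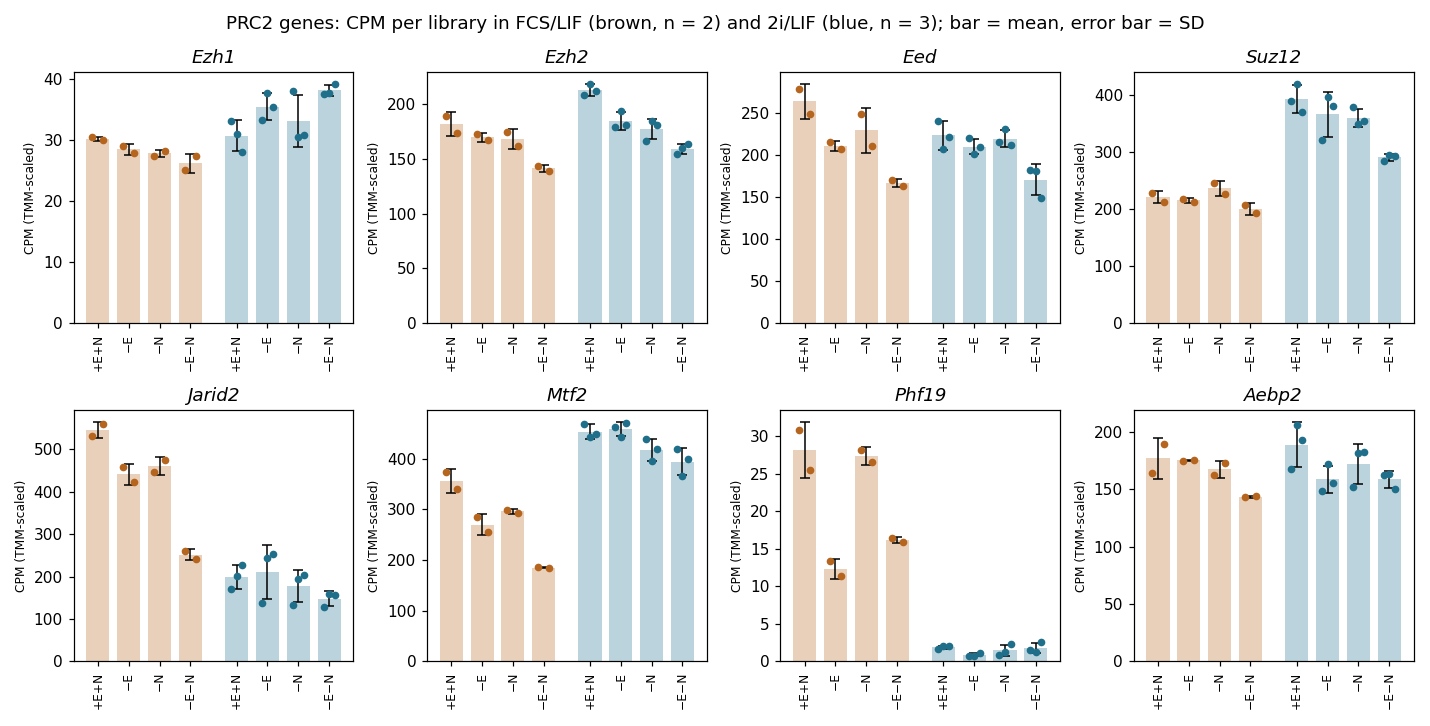
CPM of each PRC2 gene (vertical axis, from 0) in the 4 states of FCS/LIF (brown, 2 libraries each) and 2i/LIF (blue, 3 libraries each); points are libraries, bars the mean and error bars the SD. In FCS/LIF the −E−N points of Jarid2, Mtf2, Eed and Phf19 lie below those of +E+N without overlap, and Phf19 is below 3 CPM in every library of 2i/LIF.

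In FCS/LIF, cells without both receptors had lower CPM for 7 of the 8 PRC2 genes at an adjusted p under 0.05. In −E−N against +E+N, Jarid2, Mtf2, Phf19 and Eed fell and were called, 4 of 8 members where 18.8% of all 15636 genes tested were called, and of the 2934 genes called 1000 were lower. Ezh2, Aebp2 and Ezh1 were also lower at an adjusted p under 0.05, which makes 7 of 8 members, all lower, against 46.7% of all genes. Suz12 did not pass. For every one of the 8 members both −E−N libraries lay below both +E+N libraries in CPM, as they did for 34.8% of all genes. In TPM, which is per transcript length, the libraries of Ezh1, Suz12 and Aebp2 overlapped.

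Among the catalytic subunits, Ezh2 (chr6:47530139-47595341, minus strand) measured 189 and 174 CPM in +E+N, 172 and 167 CPM in −E, 175 and 161 CPM in −N and 144 and 139 CPM in −E−N. The −E−N libraries lay below all others, with a log2 fold change of −0.38 (SE 0.0628, adjusted p = 0.00127) against +E+N. Ezh1 (chr11:101191115-101226463, minus strand), the subunit associated with resting and differentiated cells, was at 30.4 and 29.9 CPM in +E+N and 25.0 and 27.3 CPM in −E−N. The libraries did not overlap, and the log2 fold change was −0.23 (SE 0.0736, adjusted p = 0.0314). Leaving out 1 library raised the adjusted p of Ezh1 in edgeR to as much as 0.129. Its TPM overlapped, at 10.59 and 10.77 in +E+N and 9.97 and 10.70 in −E−N.

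Of the core, Eed (chr7:89954654-89980983, minus strand) measured 279 and 249 CPM in +E+N, 215 and 207 CPM in −E, 249 and 210.5 CPM in −N and 170.3 and 164 CPM in −E−N. All depleted libraries lay below the control, −N overlapped −E, and −E−N was the lowest. Eed was lower in −E, with a log2 fold change of −0.34 (SE 0.0839, adjusted p = 0.0228), and fell to 0.625 times the control level in −E−N, a log2 fold change of −0.68 (SE 0.0844, adjusted p = 2.88e-04). Suz12 (chr11:79993106-80034123, plus strand) was at 229 and 213 CPM in +E+N and 208 and 193 CPM in −E−N, a log2 fold change of −0.16 (95% interval −0.30 to −0.02, adjusted p = 0.0651). On the TPM scale its sign turned, with a difference near 0 (0.00189 by limma on log2(TPM + 1), adjusted p = 0.983). Exons on the opposite strand overlap 261 of the 3828 exonic bases of Eed and 178 of 4945 of Suz12, as they do 174 of 6678 of Ezh2 and 395 of 5698 of Mtf2, and whether counting used the strand is not given in the sources used here.

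The accessory subunits held the 3 largest falls. Jarid2 (chr13:44729474-44921643, plus strand), which helps to bring PRC2 to its targets, measured 531 and 559 CPM in +E+N, 458 and 424 CPM in −E, 445 and 475 CPM in −N and 260.3 and 242 CPM in −E−N. Each depleted state lay below the control, and −E−N lay below all other libraries of this medium, at 0.455 times the control level, a log2 fold change of −1.14 (SE 0.0642, adjusted p = 4.59e-06). Mtf2 (chr5:108065674-108109004, plus strand), which binds DNA rich in CpG, measured 374 and 339.6 CPM, 284 and 255 CPM, 299 and 293 CPM and 186 and 185 CPM in the same order. Its 4 states did not overlap, and in −E−N it fell to 0.513 times the control level, a log2 fold change of −0.96 (SE 0.0685, adjusted p = 1.49e-05).

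Phf19 (chr2:34893757-34914026, minus strand), the other Polycomb-like subunit among the 8 members, followed another order. It was at 30.8 and 25.5 CPM in +E+N, 28.2 and 26.5 CPM in −N, 13.3 and 11.4 CPM in −E and 16.4 and 15.9 CPM in −E−N. The states with Esrrb and those without it formed 2 groups that did not overlap, and −E, not −E−N, was the lowest. Phf19 fell by 0.82 (SE 0.11, adjusted p = 4.67e-04) on the log2 scale in −E−N. In TPM, which RSEM corrects for transcript length, it measured 14.4 and 10.7 in +E+N and 9.81 and 8.36 in −E−N, and limma on log2(TPM + 1) gave −0.42 (adjusted p = 0.0613), past neither threshold. Aebp2 (chr6:140622663-140678472, plus strand), a zinc finger subunit, was at 165 and 189.5 CPM in +E+N and 143 and 144 CPM in −E−N. Its difference was −0.32 (SE 0.0707, adjusted p = 0.00553), under the fold limit. The TPM of Aebp2 overlapped, at 53.64 and 64.95 in +E+N and 56.31 and 56.57 in −E−N.

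ESC markers and markers of another lineage moved with these falls. The summed CPM of 8 ESC markers was 4748 to 5099.7 in +E+N and 2629.8 to 2849.5 in −E−N, and 6 of the 8 were called lower. The summed CPM of 8 trophectoderm markers, among them Cdx2, Krt8 and Krt18, was 386 to 437 and 1440.1 to 2239.9, with 6 called higher and 1 lower. Fibroblast (feeder) markers summed to 8.92 to 10.5 CPM and 15.5 to 18.9 CPM, with 5 of 7 tested called higher, Dcn and Lum being at 3 counts or fewer in +E+N. Primitive endoderm markers summed to 118 to 142 CPM and 104 to 111 CPM, with 1 of 8 called higher and 1 lower. Of 10 proliferation genes none was called and 5 were lower at an adjusted p under 0.05. The part of these changes in the PRC2 values was not tested.

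**Figure D2:**
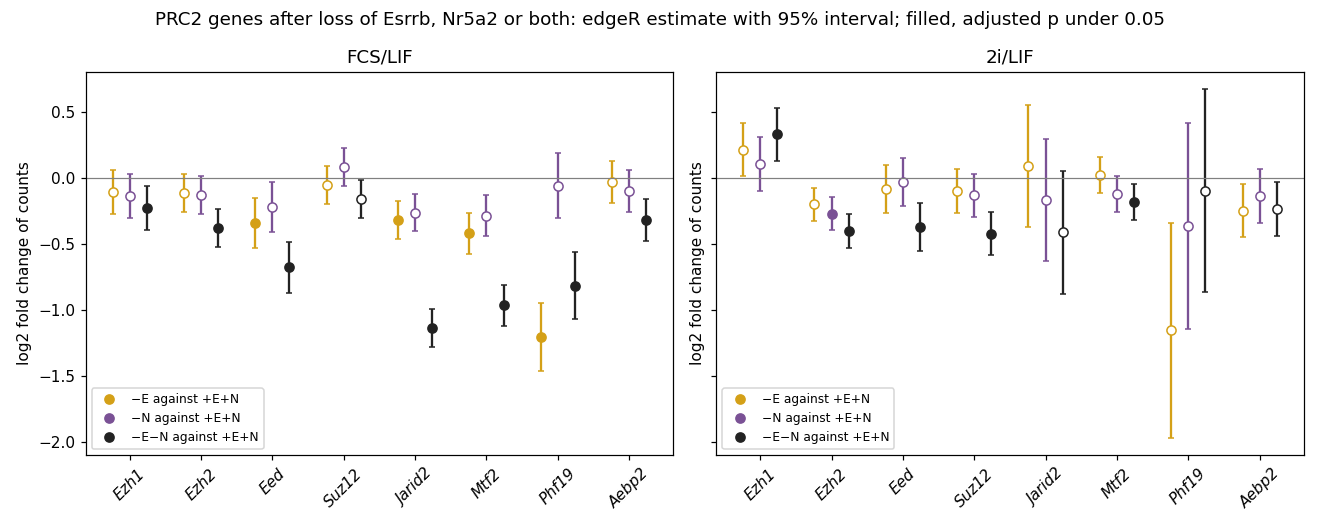
Log2 fold change of counts against +E+N (vertical axis) for each PRC2 gene in −E, −N and −E−N, for FCS/LIF on the left and 2i/LIF on the right; bars are 95% intervals from edgeR and filled points have an adjusted p under 0.05. All black points (−E−N) are below 0 in FCS/LIF, and in 2i/LIF the black point of Ezh1 alone is above 0.

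After the loss of Esrrb alone in FCS/LIF, the Polycomb-like gene Phf19 fell. In −E against +E+N, Phf19 was the 1 member called, where 5.76% of all genes were called, and fell to 0.434 times the control level, a log2 fold change of −1.21 (SE 0.11, adjusted p = 2.03e-04). Mtf2, with −0.42 (SE 0.0678, adjusted p = 0.00337), Jarid2, with −0.32 (SE 0.0633, adjusted p = 0.00839), and Eed were lower at an adjusted p under 0.05 without reaching a fold of 1.5. These make 4 of 8 members, all lower, against 19.3% of all genes, and 6 of 8 members had both −E libraries below both control libraries, as did 29.3% of all genes. The ESC markers summed to 3829 to 3969 CPM in −E, with 2 of 8 called lower and 0 higher against +E+N. Trophectoderm markers summed to 498 to 685 CPM in −E, above the 386 to 437 CPM of +E+N. Of these 8 markers 2 were called lower and 0 higher, and their median log2 fold change was 0.38. The part of these markers in the PRC2 values was not tested. After the loss of Nr5a2 alone no member passed. In −N against +E+N, edgeR called 0 of 8 members, DESeq2 also 0, and 3 had an unadjusted p under 0.05, against 0.173% of all genes called and 2.00% at an adjusted p under 0.05. The values nearest to the threshold were those of Mtf2, −0.29 (SE 0.0677, adjusted p = 0.0731), and Jarid2, −0.26 (SE 0.0633, adjusted p = 0.0780). For 4 of 8 members the −N libraries lay below those of the control, as they did for 18.3% of all genes.

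Cells without Nr5a2 that also lost Esrrb had lower CPM for 7 of the 8 members at an adjusted p under 0.05. In −E−N against −N, Jarid2 (log2 fold change −0.87, SE 0.0639, adjusted p = 3.74e-05), Phf19 (log2 fold change −0.76, SE 0.11, adjusted p = 0.00139) and Mtf2 (log2 fold change −0.68, SE 0.0682, adjusted p = 2.11e-04) were called, 3 of 8 members against 10.1% of all genes. In all, 7 of 8 were lower at an adjusted p under 0.05, against 32.9%. With 1 library left out, the adjusted p in edgeR reached 0.0930 for Ezh2, 0.119 for Suz12 and 0.155 for Aebp2, while the other members of the 7 kept that limit. Both the −E−N libraries lay below both −N libraries in CPM for all 8 members and for 31.3% of all genes. In TPM those of Ezh1 and Aebp2 overlapped. On the TPM scale the calls of Mtf2 (−0.55, adjusted p = 0.00103) and Phf19 (−0.25, adjusted p = 0.260) were lost, and without either −E−N library that of Phf19 (adjusted p = 0.0101 and 0.0160).

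Among cells without Esrrb, those that also lacked Nr5a2 had lower CPM of Jarid2, the 1 member called. In −E−N against −E, Jarid2 alone was called, with −0.81 (SE 0.0639, adjusted p = 2.94e-04), against 5.05% of all genes. At an adjusted p under 0.05, 5 members were lower and Phf19 was higher, 0.39 (SE 0.11, adjusted p = 0.0439), against 20.8% of all genes. With 1 library left out, the adjusted p in edgeR reached 0.272 for Phf19, 0.147 for Ezh2, 0.155 for Eed and 0.110 for Aebp2. For Jarid2 and Mtf2 it was at most 0.00641 and 0.0237. Mtf2 gave −0.54 (SE 0.0682, adjusted p = 0.00141), and without replicate 2 of −E it was called as well (−0.63, adjusted p = 0.00604). The interaction asks whether the loss of both differs from the sum of the 2 single losses on the log2 scale. edgeR called 0 of 8 members and 3 had an unadjusted p under 0.05, where 0.0320% of all genes, 5 in number, were called. Jarid2 was the nearest, −0.55 (95% interval −0.75 to −0.35, adjusted p = 0.0986). DESeq2 called it (−0.57, adjusted p = 8.47e-05), as did edgeR without a filter on low counts (−0.56, adjusted p = 1.52e-06). All these comparisons share libraries, so their values are set side by side and are not independent of each other.

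In 2i/LIF, no member passed both limits after any loss in the fit of all libraries without a replicate block. With the block, Phf19 did in −E and in −E−N against −E. In −E−N the members at an adjusted p under 0.05 were Ezh1, Ezh2, Eed, Suz12 and Mtf2. In −E−N against +E+N, 0 of 8 members passed both limits in edgeR, and 0 in DESeq2, although 18.6% of all 14355 genes tested were called. At an adjusted p under 0.05, Ezh2, Suz12, Eed and Mtf2 were lower and Ezh1 was higher, 5 of 8 members against 40.9% of all genes, and 6 had an unadjusted p under 0.05. All −E−N libraries lay below all control libraries for 6 members, against 27.4% of all genes, and above them for 1 member, against 25.1%.

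Ezh2 measured 208, 219 and 212 CPM in +E+N, 179, 194 and 181 CPM in −E, 167, 184 and 181 CPM in −N and 154, 160.1 and 163 CPM in −E−N. The control lay above all other states, and −E−N below them, with a log2 fold change of −0.40 (SE 0.0588, adjusted p = 1.61e-04). Ezh1 measured 33.0, 30.9 and 28.0 CPM in +E+N and 37.4, 37.6 and 39.1 CPM in −E−N. It was the only one of the 8 members that was higher at an adjusted p under 0.05, with a log2 fold change of 0.33 (SE 0.0928, adjusted p = 0.0133). Eed was at 241, 208 and 222 CPM in +E+N and 183, 181 and 149 CPM in −E−N, without overlap, and gave −0.37 (SE 0.0830, adjusted p = 0.00324). Suz12 was at 389.7, 420.3 and 371 CPM in +E+N, 321, 397 and 381 CPM in −E, 379, 349 and 355 CPM in −N and 285, 295 and 293 CPM in −E−N. All −E−N libraries were below all others, with a log2 fold change of −0.42 (SE 0.0756, adjusted p = 7.35e-04) against the control.

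For the accessory subunits, Mtf2 measured 469.8, 443 and 449 CPM in +E+N and 419, 365 and 400.0 CPM in −E−N, with 3 libraries of each, no overlap and a log2 fold change of −0.19 (SE 0.0629, adjusted p = 0.0312). Jarid2 measured 169, 200.0 and 226 CPM in +E+N, 138, 244 and 252 CPM in −E, 133, 194 and 204 CPM in −N and 128, 158 and 157 CPM in −E−N. In each of the 4 states replicate 1 was the lowest, and the libraries of all 4 states overlapped except those of +E+N and −E−N. The difference in −E−N was −0.41 (95% interval −0.88 to 0.05, adjusted p = 0.142), which did not pass. Aebp2 gave −0.24 (95% interval −0.44 to −0.03, adjusted p = 0.0597). Phf19 held only 52, 54 and 58 counts in +E+N, 21, 20 and 31 counts in −E, 24, 35 and 61 counts in −N and 44, 36 and 75 counts in −E−N, or 1.67, 2.01 and 2.02 CPM, 0.751, 0.719 and 1.07 CPM, 0.871, 1.29 and 2.29 CPM and 1.45, 1.27 and 2.54 CPM. At this depth differences of Phf19 in 2i/LIF are known only roughly.

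After the loss of a single receptor in 2i/LIF, at most 1 of 8 members passed an adjusted p of 0.05, near the share of all genes. In −E against +E+N, 0 of 8 were called, where 1.55% of all genes were, and 0 passed an adjusted p of 0.05, where 6.13% did, with 4 at an unadjusted p under 0.05 and 0 called by DESeq2. The largest value was that of Phf19, −1.15 (95% interval −1.97 to −0.34, adjusted p = 0.0961), all 3 −E libraries being below the control. With the replicate number as a block, Phf19 was called (−1.19, adjusted p = 0.00915). Ezh2 gave −0.20 (SE 0.0587, adjusted p = 0.0657), its −E libraries also being below the control. In −N against +E+N, 0 of 8 were called by edgeR or DESeq2, where 3.65% of all genes were, and only Ezh2 had an unadjusted p under 0.05 and passed an adjusted p of 0.05, −0.27 (SE 0.0588, adjusted p = 0.0112), where 10.5% of all genes did. When 1 library was left out, the adjusted p of Ezh2 in edgeR reached 0.0573.

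In 2i/LIF cells that lost the second receptor, Eed and Suz12 were lower at an adjusted p under 0.05. In −E−N against −N, edgeR and DESeq2 called 0 of 8 members, where 6.76% of all genes were called by edgeR, with 4 at an unadjusted p under 0.05. Eed (log2 fold change −0.34, SE 0.0830, adjusted p = 0.0127) and Suz12 (log2 fold change −0.29, SE 0.0756, adjusted p = 0.0178) were lower at an adjusted p under 0.05, 2 of 8 members against 19.5% of all genes. With 1 library left out, the adjusted p in edgeR reached 0.0598 for Eed and 0.062 for Suz12. In −E−N against −E, 0 of 8 were called by either tool, against 13.1%, and 6 had an unadjusted p under 0.05. Suz12 (log2 fold change −0.32, SE 0.0756, adjusted p = 0.00640), Eed (log2 fold change −0.29, SE 0.0830, adjusted p = 0.0186), Mtf2 (log2 fold change −0.21, SE 0.0629, adjusted p = 0.0244) and Ezh2 (log2 fold change −0.20, SE 0.0588, adjusted p = 0.0193) were lower and Phf19 was higher (log2 fold change 1.06, SE 0.38, adjusted p = 0.0482) at an adjusted p under 0.05, against 31.9% of all genes. With 1 library left out, the adjusted p in edgeR against −E reached 0.0639 for Eed, 0.0741 for Ezh2, 0.0938 for Mtf2 and 0.21 for Phf19. For Suz12 it was at most 0.0320. Phf19 was called with the replicate number as a block (1.04, adjusted p = 0.00682). Jarid2, with −0.50 (SE 0.21, adjusted p = 0.0923), was called without replicate 1 of −E (−0.73, adjusted p = 0.00885). For the interaction 0 of 8 members were called by edgeR or DESeq2, where 0.307% of all genes were, and Eed and Phf19 had an unadjusted p under 0.05.

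ESC markers in 2i/LIF summed to 5069 to 5417 CPM in +E+N and 2140.3 to 2783 CPM in −E−N, with 5 of 8 called lower. Trophectoderm markers summed to 24.8 to 30.7 CPM and 243 to 417 CPM, with 5 of 6 tested called higher and 1 lower, and Hand1 at 3 counts or fewer in the control. Fibroblast (feeder) markers summed to 11.2 to 20.0 CPM and 12.01 to 22.2 CPM, with Dcn and Postn at 3 counts or fewer in both states, with 1 of 4 tested called higher and 1 lower. Primitive endoderm markers summed to 46.6 to 54.7 CPM and 12.7 to 16.4 CPM, with 2 of 6 tested called higher, 2 lower and a median of 0.28. Most of the sum in +E+N was Lama1, at 39.9 to 49.4 CPM there and 1.13 to 2.16 CPM in −E−N. Of 10 proliferation genes 1 was called lower. Their part in the PRC2 values was not tested.

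The control cells of the 2 media differed most in Phf19 and Jarid2. Between the control cells of 2i/LIF and FCS/LIF, Phf19 and Jarid2 were lower and Suz12 higher in 2i/LIF, 3 of 8 members called against 34.7% of all 16147 genes tested. At an adjusted p under 0.05, 3 members were higher and 3 lower, against 60.3% of all genes. The libraries of these 6 did not overlap, which held for 37.5% of all genes as higher and 36.5% as lower in 2i/LIF. Phf19 was at 28.2 ± 3.73 (SD, n = 2) CPM in FCS/LIF and 1.90 ± 0.199 (SD, n = 3) CPM in 2i/LIF, a log2 fold change of −3.89 (SE 0.27, adjusted p = 2.75e-09), or 0.0674 times. Jarid2 was at 545 ± 19.3 (SD, n = 2) CPM and 199 ± 28.5 (SD, n = 3) CPM, −1.46 (SE 0.20, adjusted p = 1.00e-05). Suz12 was at 221 ± 10.8 (SD, n = 2) CPM and 394 ± 24.7 (SD, n = 3) CPM, 0.83 (SE 0.0821, adjusted p = 2.03e-07). Under the fold limit, Mtf2 (log2 fold change 0.35, SE 0.0693, adjusted p = 3.72e-04) and Ezh2 (log2 fold change 0.23, SE 0.0620, adjusted p = 0.00417) were higher and Eed (log2 fold change −0.24, SE 0.0923, adjusted p = 0.0333) was lower in 2i/LIF.

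Over the 8 groups, the ratio of the highest to the lowest group mean was 33.2 for Phf19, 3.70 for Jarid2, 2.48 for Mtf2, 1.97 for Suz12, 1.58 for Eed, 1.51 for Ezh2, 1.46 for Ezh1 and 1.32 for Aebp2. For Jarid2 the means of all 4 groups of FCS/LIF stood above those of 2i/LIF, in the order +E+N, −N, −E and −E−N, and −E−N of FCS/LIF overlapped with −E of 2i/LIF, as did all neighbours among the groups of 2i/LIF. The order was the opposite for Mtf2 and Suz12, with the means of all 4 groups of 2i/LIF above those of FCS/LIF. The means of Ezh2, Eed and Aebp2 from both media were interleaved, and −E−N of FCS/LIF was the lowest group for all 3.

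The response to the loss of both receptors differed between media for 2 members. The difference of the 2 responses, FCS/LIF minus 2i/LIF, was tested in 1 fit of all 20 libraries at an adjusted p under 0.01, and 13.2% of all genes were called. Mtf2 was the clearest. It fell to 0.513 times the control level in FCS/LIF and was at 0.878 times in 2i/LIF, with a difference of responses of −0.74 (95% interval −0.95 to −0.54, adjusted p = 4.56e-05). Ezh1 was lower in −E−N in FCS/LIF and higher in 2i/LIF, with a difference of −0.52 (95% interval −0.80 to −0.24, adjusted p = 0.00887). The call of Ezh1 lay close to the threshold and was lost when any of 14 of the 20 libraries was left out (adjusted p up to 0.0402), and on the TPM scale (−0.27, adjusted p = 0.198).

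For Jarid2 the difference was of similar size, −0.69 (95% interval −1.30 to −0.07, adjusted p = 0.0983), but its spread in 2i/LIF was wide. With the medium and replicate number as a block it was called (−0.69, adjusted p = 9.30e-04). Without the 4 libraries of 2i/LIF numbered 1, an alternative chosen after seeing the data, it was called too (−0.69, adjusted p = 2.39e-04). Phf19 gave −0.69 (SE 0.38, adjusted p = 0.215). For the response to −E, edgeR called 0 of 8 members, where 1.06% of all genes were called and 2 members had an unadjusted p under 0.05. Mtf2 gave −0.42 (95% interval −0.63 to −0.21, adjusted p = 0.0236), and was called by DESeq2 (−0.41, adjusted p = 0.00201) and with the block (−0.42, adjusted p = 9.82e-04). For the response to −N, 0 of 8 members were called by edgeR or DESeq2, 0 had an unadjusted p under 0.05, and 0.743% of all genes were called.

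**Figure D3:**
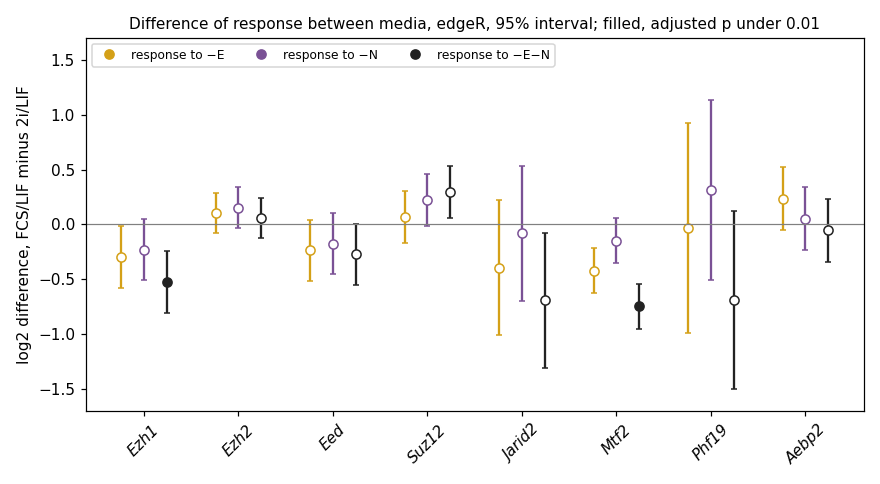
Difference between media (FCS/LIF minus 2i/LIF, vertical axis, log2) of the response to −E, −N and −E−N for each PRC2 gene, with 95% intervals from edgeR; filled points have an adjusted p under 0.01. The filled points are Mtf2 at −0.74 and Ezh1 at −0.52, both for −E−N, and the intervals of Jarid2 and Phf19 are the widest.

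Levels of different genes were compared in TPM, which is per length. In +E+N, Ezh1 took 8.90% ± 0.282 (SD, n = 2) of the TPM of Ezh1 plus Ezh2 in FCS/LIF and 6.53% ± 0.366 (SD, n = 3) in 2i/LIF, so that Ezh2 was by far the more abundant catalytic transcript. In 2i/LIF the share of Ezh1 was 6.93, 6.46 and 6.20 percent in the libraries of +E+N and 9.84, 9.18 and 9.49 percent in those of −E−N, without overlap. In FCS/LIF the shares were 8.70 and 9.10 percent and 9.33 and 10.4 percent.

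The accessory genes were divided differently in each medium. Jarid2 plus Aebp2 (PRC2.2) held 58.2% ± 3.14 (SD, n = 2) of the TPM of the 4 accessory genes in +E+N in FCS/LIF and 40.9% ± 2.97 (SD, n = 3) in 2i/LIF, with Mtf2 plus Phf19 (PRC2.1) making up the rest. In −E−N the shares were 59.6% ± 0.180 (SD, n = 2) and 39.5% ± 1.78 (SD, n = 3), close to those of the controls. Inside PRC2.2, Jarid2 took 71.4 and 69.7 percent in the libraries of +E+N and 57.8 and 55.4 percent in those of −E−N in FCS/LIF. In 2i/LIF the corresponding values were 42.0, 40.2 and 46.5 percent and 35.3, 40.9 and 43.5 percent, which overlap. Of the TPM of Mtf2 plus Phf19, Phf19 took 8.69% ± 1.54 (SD, n = 2) in FCS/LIF control cells. Its share there was 5.23% ± 0.735 (SD, n = 2) in −E and 10.3% ± 0.872 (SD, n = 2) in −E−N. In 2i/LIF control cells the share of Phf19 was 0.437% ± 0.0306 (SD, n = 3). These shares are descriptions of messenger RNA and carry no test. The other subunits and cofactors reported below, Phf1 and Epop among them, are not part of the shares.

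**Figure D4:**
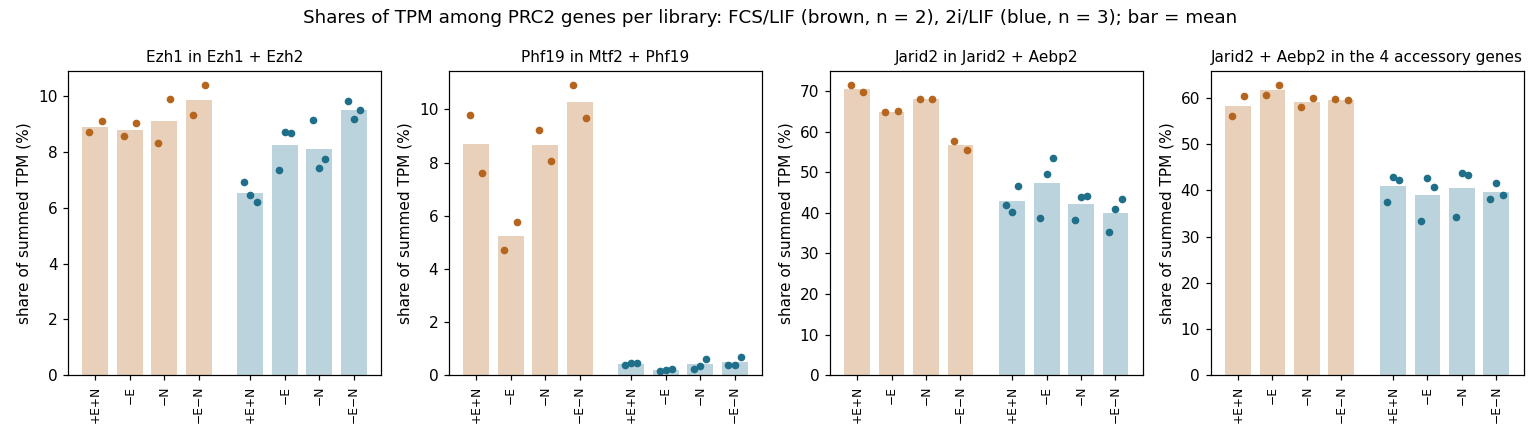
Share of summed TPM (vertical axis, percent, from 0) of Ezh1 in Ezh1 plus Ezh2, Phf19 in Mtf2 plus Phf19, Jarid2 in Jarid2 plus Aebp2, and Jarid2 plus Aebp2 (PRC2.2) in the 4 accessory genes, in the 4 states of FCS/LIF (brown, n = 2) and 2i/LIF (blue, n = 3); points are libraries and bars means. The share of PRC2.2 is above 55% in all libraries of FCS/LIF and below 45% in all libraries of 2i/LIF.

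Other subunits and cofactors of PRC2 had 1 call in each medium. Of the 6 measured (Rbbp4, Rbbp7, Phf1, Epop, Lcor and Lcorl), 1 was called lower in −E−N in FCS/LIF, where 18.8% of all genes were called, and 1 higher in 2i/LIF, where 18.6% were, with medians of the log2 fold change of 0.01 and 0.27, against −0.53 and −0.30 for the 8 members and 0.00 and 0.01 for all genes. Epop, a cofactor of PRC2.1, was at 151 to 177 CPM in +E+N and 81.3 to 91.4 CPM in −E−N in FCS/LIF, −0.94 (SE 0.11, adjusted p = 1.80e-04). In 2i/LIF it was at 170.3 to 212 CPM and 259 to 300.0 CPM, 0.58 (SE 0.10, adjusted p = 7.38e-04), which passed the limit on p and not that on fold (it passed both with the replicate block and on the TPM scale). The difference of these responses was −1.49 (95% interval −1.85 to −1.14, adjusted p = 1.14e-05). Rbbp7, a histone-binding subunit shared with other chromatin complexes, was higher in −E−N in both media, 0.34 (SE 0.0757, adjusted p = 0.00583) in FCS/LIF and 0.94 (SE 0.0658, adjusted p = 5.62e-07) in 2i/LIF, and the difference of responses was −0.56 (95% interval −0.78 to −0.35, adjusted p = 7.83e-04).

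PRC1, the complex that ubiquitinates histone H2A and in only some of its forms recognises the mark made by PRC2, had called members in 1 direction in FCS/LIF. Of 21 PRC1 genes, in −E−N 6 passed as higher and 0 as lower, where 18.8% of all genes were called (1934 higher and 1000 lower of 15636), with a median of −0.03, and 7 were higher and 6 lower at an adjusted p under 0.05. The 6 included the ring-finger subunits Pcgf5 (log2 fold change 1.42, SE 0.10, adjusted p = 1.40e-05) and Bmi1 (log2 fold change 0.93, SE 0.12, adjusted p = 4.16e-04), and the chromodomain subunit Cbx8 (log2 fold change 1.01, SE 0.19, adjusted p = 0.00281). Phc2, Yaf2 and Kdm2b, with 1.01, 1.38 and 0.68, complete the set. Cbx8 was scarce, at 1.88 to 2.39 CPM in +E+N, and its call was lost without replicate 1 of +E+N or replicate 2 of −E−N. On the TPM scale the calls of Cbx8, Bmi1 (0.74, adjusted p = 0.0158) and Kdm2b (0.55, under the fold limit) were lost.

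In 2i/LIF, Phc2 (log2 fold change 1.33, SE 0.16, adjusted p = 3.23e-05), Yaf2 (log2 fold change 1.07, SE 0.22, adjusted p = 0.00211) and Bcor (log2 fold change 0.79, SE 0.15, adjusted p = 9.52e-04) were called higher, and Phc1 (log2 fold change −0.66, SE 0.15, adjusted p = 0.00341) lower, where 18.6% of all genes were called, with a median of −0.05 over the 21. The call of Phc1 was lost without any 1 of the +E+N libraries (adjusted p 0.0101 to 0.0121) and without replicate 3 of −E−N (−0.47, under the fold limit). The response to the loss of both differed between media for Cbx8 (1.69, 95% interval 0.86 to 2.51, adjusted p = 0.00466) and Pcgf5 (1.45, 95% interval 0.97 to 1.93, adjusted p = 2.21e-04). Of the demethylases that remove the mark, Kdm6b was called lower in 2i/LIF (log2 fold change −0.79, SE 0.14, adjusted p = 6.59e-04) and Kdm6a in neither medium. On the TPM scale the call of Kdm6b was lost (−0.69, adjusted p = 0.0127).

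**Figure D5:**
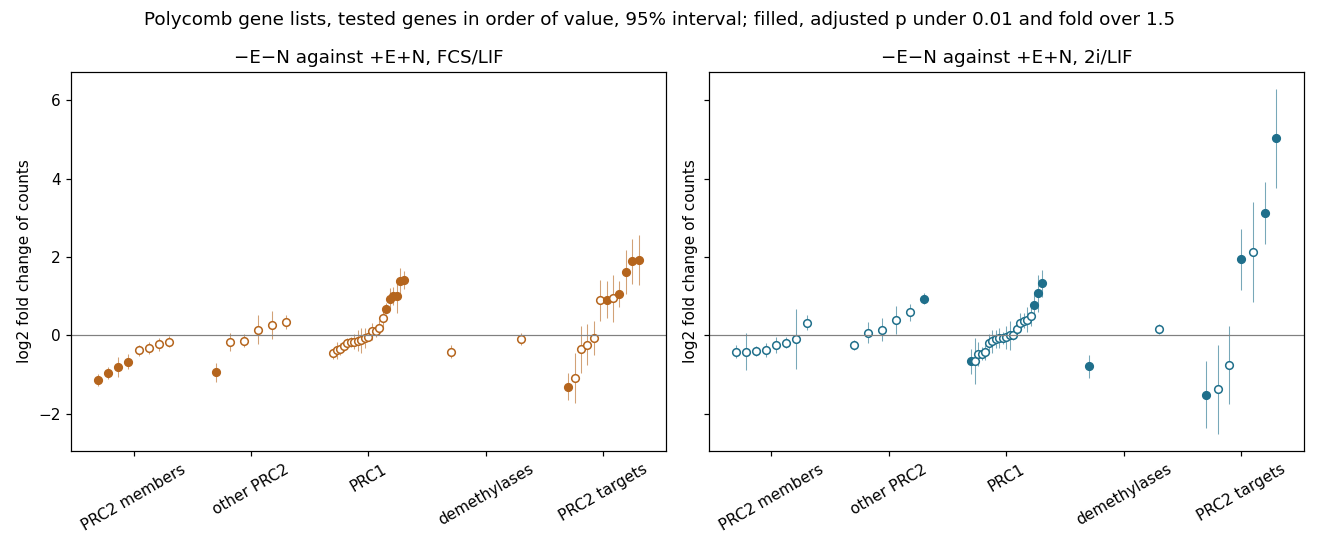
Log2 fold change of counts in −E−N against +E+N (vertical axis) for the tested genes of 5 Polycomb lists, ordered by value within each list, in FCS/LIF (left) and 2i/LIF (right); lines are 95% intervals from edgeR and filled points are called. In FCS/LIF the called PRC2 members are at −0.68 or lower and the called PRC1 genes at 0.68 or higher.

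Genes known to carry the PRC2 mark in ESCs were mostly near the detection limit. Of 20 such regulators of development, 12 were tested in FCS/LIF, and in −E−N 5 passed as higher and 1 as lower, against 18.8% of all genes called, with a summed CPM over the 20 of 45.9 to 51.0 in +E+N and 80.4 to 104 in −E−N. Cdx2 (log2 fold change 1.89, SE 0.25, adjusted p = 4.22e-04), Hand1 (1.62), Nkx2-2 (1.92), Sox1 (1.06) and Tal1 (0.91) were higher and Pax6 (log2 fold change −1.31, SE 0.15, adjusted p = 1.81e-04) was lower. The call of Tal1 was lost without any 1 of 6 of the 8 libraries (adjusted p 0.0114 to 0.0467) and with limma on log2(TPM + 1) (0.46, under the fold limit). In 2i/LIF 7 were tested and 4 called, against 18.6% of all genes, with a summed CPM of 11.7 to 15.9 and 53.6 to 74.5. Cdx2 (log2 fold change 5.03, SE 0.58, adjusted p = 2.79e-05), Foxa2 (3.12) and Pax6 (1.94) were called higher and Gata4 (−1.52) lower. The call of Gata4, at 30 to 36 counts in +E+N and 6 to 15 in −E−N, was lost without any 1 of 9 of the 12 libraries (adjusted p 0.0107 to 0.0343), without the libraries numbered 1 (−1.82, adjusted p = 0.0218) and on the TPM scale (−0.24, adjusted p = 0.0768). Pax6 was thus called in opposite directions in the 2 media. The filter keeps a gene that reaches 20 counts in 1 state only, which favours genes that differ, and the counts cover the tested genes alone.

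As a description over the 8 group means, the gene most like each member by Pearson's r of mean log2 CPM, among 11737 genes averaging 100 counts or more, was Xkr8 for Ezh1 (r = 0.978), Gsta4 for Ezh2 (r = 0.973), Hmces for Eed (r = 0.984), Qsox2 for Suz12 (r = 0.997), Ybx3 for Jarid2 (r = 0.996), Gm14409 for Mtf2 (r = 0.995), Cul3 for Phf19 (r = 0.992) and Ncor1 for Aebp2 (r = 0.963). The next were 4933427D06Rik, Sap130, Top2a, Iqgap3, Kif2a, Wtap, Ppm1a and Pcbp2, in the same order. No member was among the most alike of another member. Between members the highest values were those of Jarid2 with Phf19 (r = 0.879) and Mtf2 with Suz12 (r = 0.864), and Suz12 with Phf19 had the lowest (r = −0.895). The 8 points come from 2 media, whose difference enters every r.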

How the data were processed

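RNA was sequenced as stranded, paired-end libraries from 20 samples of mouse ESCs. Per the labels, and the tools and build named in the submitters' processing notes (STAR, RSEM, mm10), the authors deposited 1 table of estimated counts and 1 of TPM per gene, without versions. TPM is scaled per sample and transcript length by RSEM. All 92 rows of spike-in sequences held 0 counts and were left out.

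From the deposited estimated counts, rounded to whole numbers, edgeR 4.0.16 (R 4.3.3) fitted a quasi-likelihood model with TMM scaling. Each medium was fitted with its 4 states, and comparisons between media used all 20 libraries. Genes needed at least 20 counts in all replicates of 1 state, which left 15636, 14355 and 16147 genes in the fits of FCS/LIF, 2i/LIF and both. All 8 members passed in each. Adjusted p-values are Benjamini-Hochberg over all genes of a fit. Tests of an interaction or of a difference of responses have no limit on fold. The authors' methods state DESeq2 with the same limits of 0.01 and 1.5, and DESeq2 1.42.0 was run as an alternative. Other alternatives were DESeq2 size factors, no filter, the replicate number as a block, limma 3.58.1 on log2 TPM after adding 1 or 0.1, and leaving out each library. The steps were tested on simulated data.

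The members and the gene lists were chosen with earlier results of these data known. 1 gene of the PRC1 list is not reported here and enters none of the list's counts. Named beside the 8 members are called genes of the other lists in −E−N, and for likeness the 2 genes of highest r. In 2i/LIF the deviations of same-numbered libraries correlated between 0.135 and 0.632 for every pair of states and number but 1. That 1 was +E+N with −E−N, number 2, at −0.00273. The numbers were taken to pair the libraries where all 3 were over 0.1. The main fits nevertheless held no replicate block, which was an alternative only. In FCS/LIF, with 2 replicates, the same correlations ran from 0.0921 (+E+N with −E) to 0.485 (+E+N with −N). The labels do not say whether the numbers pair these libraries. Promoters are from RefSeq and exons from GENCODE vM21. The 69 ChIP libraries of the series were not analysed here. Within groups, replicates differed by more than counting error (chi-square per degree of freedom over genes 4.28 to 28.3), and each library was counted as 1 sample.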

Additional observations from a re-analysis of the deposited data

Results flagged for a closer look

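The following genes responded differently to the loss of both receptors in FCS/LIF and in 2i/LIF, by edgeR's test of the difference itself over 20 libraries. Values are the log2 response in FCS/LIF minus that in 2i/LIF. Among the PRC2 members, Mtf2 differed by −0.74 (adjusted p = 4.56e-05) and Ezh1 by −0.52 (adjusted p = 0.00887). Among cofactors, Epop differed by −1.49 (adjusted p = 1.14e-05), being lower in −E−N in FCS/LIF and higher in 2i/LIF, and Rbbp7 by −0.56 (adjusted p = 7.83e-04). Among PRC1 genes, Cbx8 differed by 1.69 (adjusted p = 0.00466) and Pcgf5 by 1.45 (adjusted p = 2.21e-04). The call of Ezh1 was lost on the TPM scale and without any 1 of 14 of the 20 libraries. That of Cbx8 was lost on the TPM scale and without any 1 of 6 libraries, among them each of the 4 libraries of +E+N and −E−N in FCS/LIF. Medium and culture batch cannot be told apart in any of these.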

How the results depend on the processing

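The member values given in the text were compared with each alternative 1031 times, the threshold being that of a call. In 993 of these they kept their direction and their side of the threshold, in 12 they passed it only under the alternative, in 24 they no longer passed it and in 2 they changed sign. The last were Suz12 in −E−N in FCS/LIF under limma on TPM, at 0.00189 and 0.00190 with pseudocounts of 1 and 0.1. Values that rest on an adjusted p under 0.05 without a call are not judged by these counts. When 1 library was left out of the edgeR fit, some lost that limit. Eed in −E in FCS/LIF reached an adjusted p of 0.186, and Mtf2 in −E−N in 2i/LIF 0.117. Others kept it, as did Ezh2 in −E−N in FCS/LIF (at most 0.0167). Of all 128 member values, those not printed included, 26 changed sign under at least 1 alternative, none of them at an adjusted p under 0.05, the largest being 0.315 in absolute size. Counts of members called became 1 with DESeq2 for the FCS/LIF interaction and for the response to −E, and 1 without a filter for the FCS/LIF interaction. Under the fit with a replicate block they became 1 for −E in 2i/LIF, 1 for −E−N against −E in 2i/LIF and 1 for the response to −E, and the block changed 1 other member's call (Jarid2, response to −E−N). With limma on TPM, under both pseudocounts, they became 1 for −E−N against −N in FCS/LIF and 1 for the response to −E−N. Without the 2i/LIF libraries numbered 1, chosen after seeing the data, 1 was called in −E−N against −E in 2i/LIF. Leaving out each library gave 1 to 2 in −E−N against −E in FCS/LIF, 2 to 3 against −N, 0 to 1 in −E−N against −E in 2i/LIF and 1 to 2 for the response to −E−N. The cause was not tested in any of these. Counts over all genes depended more on the settings. Apart from leaving out libraries, those called in FCS/LIF ranged from 553 to 1631 (901 as reported) in −E, 7 to 548 (27) in −N, 1126 to 2556 (1573) in −E−N against −N, 467 to 1571 (790) against −E and 2 to 242 (5) for the interaction. In 2i/LIF they ranged from 136 to 596 (223) in −E, 309 to 1115 (524) in −N, 682 to 1622 (970) in −E−N against −N and 7 to 324 (44) for the interaction. For the difference of responses they ranged from 119 to 728 (171) for −E, 56 to 809 (120) for −N and 1796 to 3703 (2136) for −E−N. Leaving out 1 library moved the counts over all genes by more than 1.5 times in these comparisons, and with them the shares of all genes given beside the members. In FCS/LIF they ranged from 314 to 963 in −E, 5 to 12 in −N, 1812 to 3076 in −E−N (2934 as reported), 679 to 1668 in −E−N against −N, 84 to 897 against −E and 0 to 9 for the interaction. In 2i/LIF they ranged from 87 to 251 in −E, 243 to 569 in −N, 510 to 998 in −E−N against −N and 7 to 52 for the interaction, and for the difference of responses from 31 to 221 for −E, 47 to 181 for −N and 1220 to 2406 for −E−N. Phf19 in 2i/LIF, with 20 to 75 counts a library, is the member whose precision depth limits.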
